A study of Sus scrofa with 4 samples.

Results

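Genes of translation and of maternal mRNA control were examined in porcine oocytes at the M II stage, with and without inhibition of the deacetylase SIRT6. They were taken by gene symbol: the EIF and EEF translation factors, the CPEB, CNOT, BTG, ZFP36 and AGO families and DICER1, together with further families of the same processes of which no gene was listed. EIF4EBP1, EIF4EBP3 and PABPN1, whose symbols also match these names, were left out of the members. The counts listed 29 such genes among 4381 symbols, and 26 of the 29 had enough counts to be tested among 2387 genes. In the porcine RefSeq annotation 115 symbols match the names, and the 86 of them outside the counts were not analysed here, among them DAZL, YBX2, BTG4 and the cytoplasmic poly(A) binding proteins.

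RNA of pooled oocytes was made into 2 control and 2 SIRT6-inhibited mRNA libraries and sequenced, to ask how SIRT6 inhibition alters the oocyte transcriptome. Ovaries came from an abattoir, and cumulus-oocyte complexes were matured in vitro for 42 to 44 h before M II oocytes were collected. The SIRT6-inhibited group was given SIRT6-IN-1, an inhibitor of SIRT6 dissolved in DMSO, at 100 μM during maturation, and the control group was not. The sources used here do not say whether the controls received DMSO, nor whether the libraries of a group came from separate cultures. The p-values therefore measure only the spread between these libraries, which may be technical.

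The libraries held 4646129 and 3405960 counts in controls 1 and 2, and 3239200 and 4972602 counts in SIRT6-inhibited 1 and 2. The members together took 0.713% of the counts in control 1 (95% Wilson interval 0.705 to 0.720) and 0.790% in control 2 (0.780 to 0.799). They took 0.726% in SIRT6-inhibited 1 (0.717 to 0.736) and 0.756% in SIRT6-inhibited 2 (0.748 to 0.763). The smallest amount that could be told from 0, taken as 3 counts, was between 0.603 and 0.926 CPM, and intervals and floors cover counting error only.

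The oocyte label was checked against marker genes. Of 16 oocyte markers 12 were listed and all 12 had counts, with a summed level of 76986 and 78445 normalized CPM (CPM of library totals scaled by TMM) in the controls against 76181 and 77583 under inhibition. KPNA7 had the most reads of them, and KPNA7, H1FOO and BMP15 made up most of the sum. Single markers differed from that flat sum. GDF9, an oocyte growth factor, had 1323 and 2988 normalized CPM in the controls against 978 and 393 under inhibition. Its log2 fold change was -1.65 and that of ZP2, a zona pellucida protein, -0.37. Both had unadjusted p-values under 0.05 and groups that did not overlap, though neither passed adjustment. All other listed oocyte markers had overlapping groups. Of all tested genes 9.05% were under that threshold, and in 40.1% the groups did not overlap. Of 20 cumulus and granulosa cell markers 16 were listed, and FSHR, LHCGR, AMH, AMHR2 and TNFAIP6 had 0 counts in all 4 libraries. The summed level of that list was 273 and 268 normalized CPM in the controls and 145 and 297 in the SIRT6-inhibited libraries, so SIRT6-inhibited 1 was the lowest. VCAN had the most reads of the list in control 2 and SIRT6-inhibited 2, and KITLG in control 1 and SIRT6-inhibited 1. PTGS2, an enzyme of expanding cumulus cells, had 22 and 12 counts in the controls and 0 in both SIRT6-inhibited libraries. INHBA, an activin subunit, also had lower values under inhibition without overlap, with 161 and 95 counts in the controls and 62 and 102 in the SIRT6-inhibited libraries, or 34.8 and 26.7 against 19.3 and 21.2 normalized CPM. CYP11A1, a steroidogenic enzyme, went the other way without overlap, with 0 and 9 counts in the controls and 13 and 56 under inhibition. None of PTGS2, INHBA and CYP11A1 had an unadjusted p-value under 0.05. The other tested markers of the list, VCAN, KITLG, STAR and FST, had overlapping groups. Of 3 leukocyte markers CD68 and CD3E were listed, summing to 1.13 normalized CPM in control 2 and 0 elsewhere. Of 3 theca and stroma markers COL1A2 and CYP17A1 were listed, with CYP17A1 at 0 throughout and a sum of 17.1 and 11.3 in the controls against 15.5 and 15.4 under inhibition. The part of other cell types, or of the differences in oocyte markers, in the values of the members was not tested.

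A fully grown oocyte stores mRNA and then matures with little new transcription, so protein output depends on which stored messages are translated and which are destroyed. Initiation factors bring the ribosome to the capped message. CPEB proteins bind elements in the 3′ ends of dormant messages and govern their polyadenylation, while the CCR4-NOT complex, helped by BTG and ZFP36 proteins, shortens poly(A) tails and leads messages to decay. DICER1 and the Argonaute proteins make and use small RNAs that guide the silencing of matching transcripts.

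No member passed adjustment over the 2387 tested genes in edgeR's quasi-likelihood test, in which the lowest adjusted p-value of a member was 0.487. At an unadjusted p-value under 0.05 stood 5 members, EIF4A1 and CPEB2 with lower and EIF4H, EIF3L and ZFP36 with higher values in SIRT6-inhibited oocytes. They were 19.2% of the 26 tested members, against 9.05% of all tested genes (216 of 2387), and 0 of all tested genes, or 0%, passed adjustment. By direction the members gave 3 higher and 2 lower, where 73 of all tested genes (3.06%) were higher and 143 (5.99%) lower at that threshold. That balance was the same with RLE normalization, and even at 2 each with at least 10 counts in every library. It turned without a filter, at 2 higher and 4 lower, where all tested genes gave 78 and 182. With library totals it was 1 and 3, against 53 and 169. DESeq2 gave 1 and 2 (all tested genes 88 and 149) and a replicate block 0 and 3 (49 and 127). A block with crossed numbers gave 3 and 4 (89 and 152). In each of these fits, too, more of all tested genes were lower than higher. No member passed adjustment in DESeq2 either, while 37 of all tested genes (1.55%) did. DESeq2 put 3 members under the unadjusted threshold. These were 11.5% of the tested members against 9.93% of all tested genes, a share near the background. In this bulk RNA, fewer oocytes of a kind and less RNA per oocyte cannot be told apart, and poly(A) tail length and translation were not measured.

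Across the 26 tested members, 12 had a positive and 14 a negative log2 fold change of SIRT6-inhibited against control oocytes. Their median was -0.19 and the range -2.52 to 0.43, while the median over all tested genes was -0.04. Among the members it was -0.28 without control 1 and -0.048 without control 2. With genes kept at a minimum of 10 counts in every library, 22 members were tested and their median was 0.05. In 14 members (53.8%) the groups did not overlap, with SIRT6-inhibited values higher in 5 and lower in 9. They did not overlap in 40.1% of all tested genes (958 of 2387), with values higher in 428 and lower in 530. The members also carried more counts than other genes, with a median of 551 counts per library against 185, and a smaller median standard error of the log2 fold change, 0.31 against 0.51. The part of that depth in the share of members under the threshold, or in the share without overlap, was not tested. The summed level of all members was 7148 and 7570 normalized CPM in the controls and 7309 and 7826 in the SIRT6-inhibited libraries, so the groups overlapped.

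**Figure D1:**
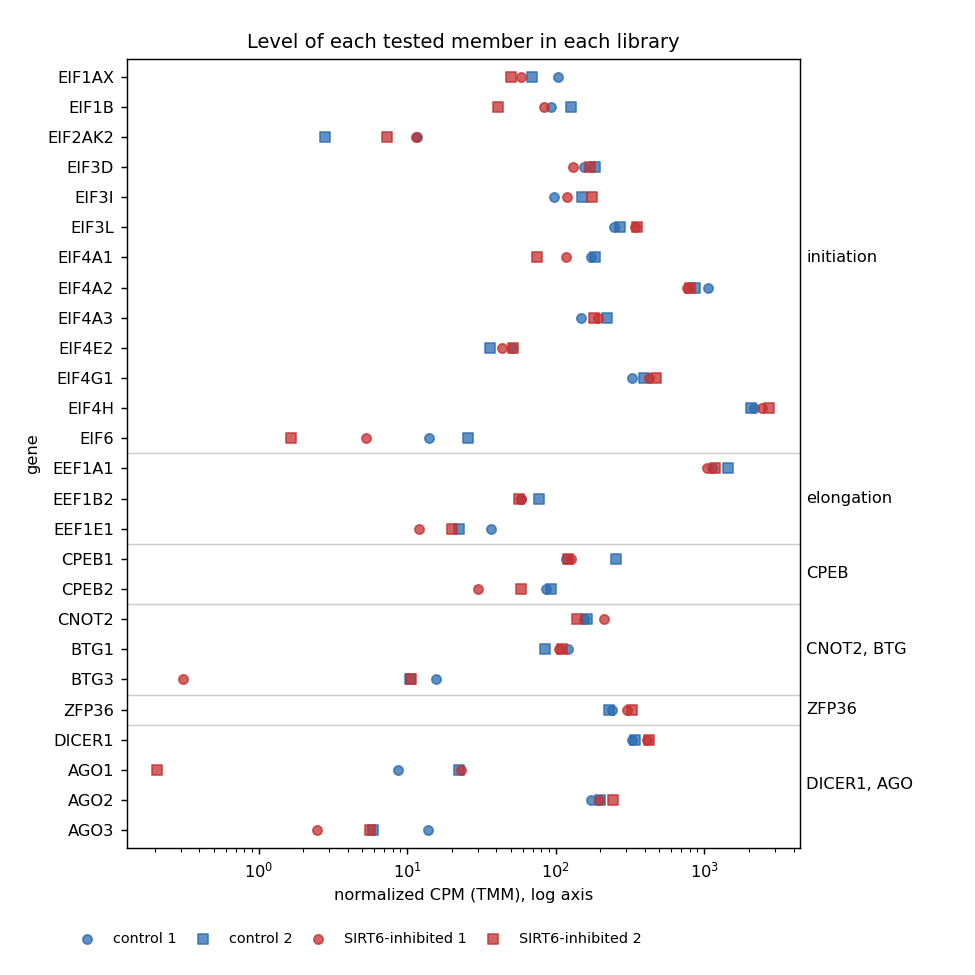
Normalized CPM (scaled by TMM, log axis) of the 26 tested members in each of the 4 libraries, grouped by role, with control libraries in blue and SIRT6-inhibited libraries in red. EIF4A1 and CPEB2 show both red points left of both blue points, and in BTG3 and AGO1 a single SIRT6-inhibited library, at 0.311 and 0.208, lies far from its replicate.

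**Figure D2:**
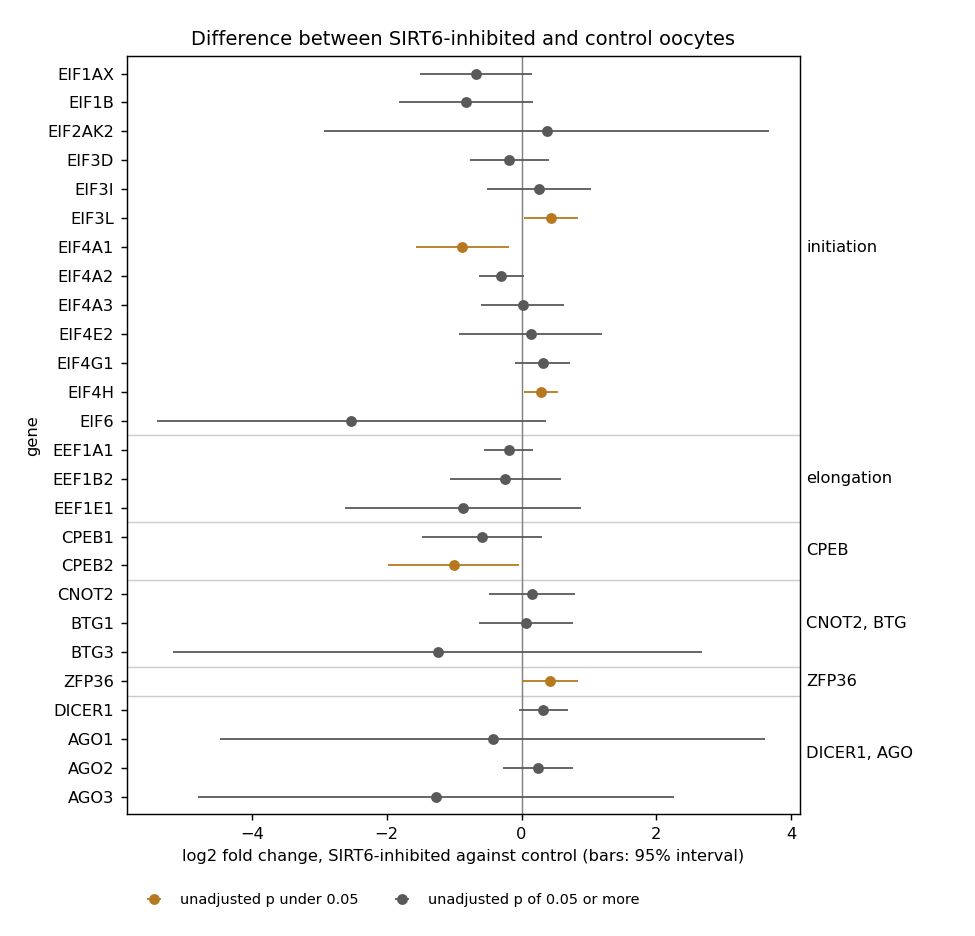
Log2 fold change of SIRT6-inhibited against control oocytes for the 26 tested members, with bars for the 95% interval and orange marking an unadjusted p-value under 0.05. The intervals of EIF4A1 and CPEB2 lie below 0 and those of EIF4H, EIF3L and ZFP36 above it, while the low-count members EIF6, AGO1, AGO3, BTG3 and EIF2AK2 have the widest bars.

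The members with the smallest p-values, EIF4A1 and EIF4H, belong to the machinery that unwinds and scans the 5′ end of a message. EIF4A1 (chr12:52868479-52874248 in RefSeq Sscrofa11.1) encodes the RNA helicase of the cap-binding complex eIF4F. It had 797 and 650 counts in controls 1 and 2 and 380 and 362 in SIRT6-inhibited 1 and 2. After scaling these were 172 and 183 normalized CPM in the controls against 118 and 75.4 under inhibition. Both SIRT6-inhibited libraries lay below both controls, with group means of 96.7 ± 30.2 and 178 ± 7.71 (SD, n = 2 each). The log2 fold change was -0.88 (standard error 0.29, 95% interval -1.57 to -0.19, edgeR's quasi-likelihood adjusted p = 0.487). With SIRT6-inhibited 1 left out the log2 fold change was -1.24 and the edgeR quasi-likelihood adjusted p-value 0.0409, the lowest in a range of 0.0409 to 0.950 over the 11 alternatives. In that fit 77 of 2586 tested genes (2.98%) passed adjustment, and EIF4A1 was the 1 of 27 tested members (3.7%) that did, so the members' share was near that of all genes. The unadjusted p-value was above 0.05 when control 1, control 2 or SIRT6-inhibited 2 was left out, with log2 fold changes of -0.93, -0.84 and -0.59.

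EIF4H, a cofactor that raises the activity of the eIF4A helicase, differed in the other direction. It lies at chr3:11321486-11348473 and had the most counts of any member, 10062 and 7405 in control and 7953 and 13115 in SIRT6-inhibited oocytes. Its levels were 2173 and 2085 normalized CPM in the controls against 2471 and 2732 under inhibition. The SIRT6-inhibited libraries were both the higher, at 2601 ± 184 against 2129 ± 62.2 (SD, n = 2 each), though the step was small. Its log2 fold change was 0.29 (standard error 0.11, 95% interval 0.03 to 0.55, edgeR's quasi-likelihood adjusted p = 0.510). The unadjusted p-value was above 0.05 without control 2, SIRT6-inhibited 1 or SIRT6-inhibited 2, with log2 fold changes of 0.26, 0.36 and 0.21.

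The paralogs of EIF4A1 and the scaffold EIF4G1 had unadjusted p-values above 0.05 in the main edgeR fit, with every library, TMM scaling and no replicate block. EIF4A2, a near-identical helicase, had 1059 and 872 normalized CPM in the controls and 769 and 799 in the SIRT6-inhibited libraries. Both SIRT6-inhibited libraries were lower, but the log2 fold change of -0.30 had a 95% interval of -0.64 to 0.03. Its unadjusted p-value was under 0.05 with library totals, at a log2 fold change of -0.36, and without control 2, at -0.44. Without control 1 the log2 fold change was -0.16. Because EIF4A1 and EIF4A2 are so alike, how reads were divided between them is uncertain, and the EIF4A2 locus also overlaps RFC4. EIF4A3, a helicase of the exon junction complex that marks spliced messages, had 149 and 222 normalized CPM in the controls against 193 and 182 under inhibition. Its groups overlapped, and its log2 fold change of 0.02 became -0.05 when counts were scaled by library totals alone. EIF4G1, which joins the cap-binding protein to the helicase and to eIF3, had 327 and 394 normalized CPM in control and 424 and 473 in SIRT6-inhibited oocytes, a log2 fold change of 0.31 with a 95% interval of -0.09 to 0.72.

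The counts of EIF4A1 were also set against those of these partners within each library, as a description. The pairs were chosen after the values were seen and carry no test. All ratios reuse the EIF4A1 values for which that gene was named, so none of them adds support. For EIF4H and EIF4G1, whose own groups lay apart in the other direction, the order of the ratios follows from the levels. The counts of EIF4A1 per count of EIF4H were 0.0792 and 0.0878 in the controls and 0.0478 and 0.0276 in the SIRT6-inhibited libraries. Per count of EIF4G1 they were 0.526 and 0.464 in the controls against 0.278 and 0.160 under inhibition. Per count of EIF4A3 the ratio was 1.15 and 0.826 in the controls against 0.612 and 0.415 under inhibition. The groups were closest for EIF4A2, with 0.162 and 0.210 in control and 0.154 and 0.0944 in SIRT6-inhibited oocytes. In each of the 4 pairs both SIRT6-inhibited ratios lay below both control ratios.

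**Figure D3:**
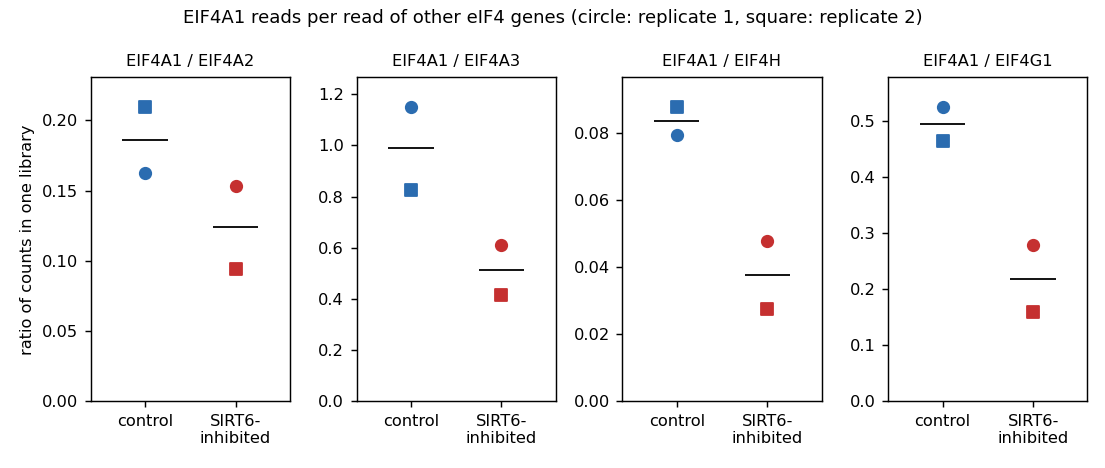
Counts of EIF4A1 divided by the counts of EIF4A2, EIF4A3, EIF4H or EIF4G1 in the same library (vertical axes from 0, ratio without unit), with circles for replicate 1, squares for replicate 2 and a bar at each group mean. The mean ratio to EIF4H was 0.0835 in control and 0.0377 in SIRT6-inhibited oocytes, and in every panel the red points lie below the blue ones. The ratios reuse the values for which EIF4A1 was named and carry no test.

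Of the large initiation complex eIF3, 3 subunits were listed. EIF3L (chr5:9970013-9996086) had 1140 and 968 counts in the controls and 1108 and 1707 in the SIRT6-inhibited libraries. In normalized CPM these were 246 and 272 in the controls against 344 and 356 under inhibition. Replicates lay close together and the groups apart, at 259 ± 18.6 and 349.9 ± 7.98 (SD, n = 2 each). The log2 fold change was 0.43 (standard error 0.17, 95% interval 0.03 to 0.83, edgeR's quasi-likelihood adjusted p = 0.531). It missed the unadjusted threshold with each library left out in turn, in DESeq2 and with library totals, the log2 fold change being 0.35 and 0.50 without controls 1 and 2 and 0.45 and 0.41 without SIRT6-inhibited 1 and 2.

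The other eIF3 subunits gave overlapping groups. EIF3D, a subunit that can itself contact the cap, had 155 and 186 normalized CPM in control and 130 and 170 in the SIRT6-inhibited libraries. Its log2 fold change was -0.18, with a 95% interval of -0.77 to 0.41. EIF3I had 97.2 and 151 normalized CPM in the controls and 120 and 176 in the SIRT6-inhibited libraries, with a log2 fold change of 0.26. Replicate 2 was the higher library of both groups in EIF3D and in EIF3I.

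Among the other initiation factors several had lower values without passing the threshold in the main edgeR fit. EIF6, which keeps the large ribosomal subunit from joining too early, had the most negative log2 fold change of the members. Its counts were 65 and 92 in control and 17 and 8 in SIRT6-inhibited oocytes, which left it imprecise. Both SIRT6-inhibited values were below the controls, yet the log2 fold change of -2.52 had a standard error of 1.20 and a 95% interval of -5.40 to 0.36 (edgeR's quasi-likelihood adjusted p = 0.586). DESeq2 put EIF6 at an unadjusted p-value under 0.05, with a log2 fold change of -2.51. Without SIRT6-inhibited 1 the log2 fold change was -3.56, without SIRT6-inhibited 2 it was -1.91 and without control 2 it was -2.01. EIF1B, a close relative of the start codon selection factor eIF1, had 93.3 and 127 normalized CPM in the controls and 83.9 and 40.8 in the SIRT6-inhibited libraries. Its log2 fold change was -0.82 (standard error 0.42), and without SIRT6-inhibited 1 it was -1.43 with an unadjusted p-value under 0.05. Without SIRT6-inhibited 2 it was -0.39 and without control 2 it was -0.59, both above that threshold. The EIF1B locus overlaps a long noncoding RNA gene. The strand of the counts is not stated, so reads from the shared stretch cannot be told apart.

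EIF1AX, the X-linked scanning factor eIF1A, had 104 and 69.0 normalized CPM in the controls against 58.1 and 50.2 under inhibition. The groups did not overlap and the log2 fold change was -0.67 (standard error 0.35), with -0.36 without control 1 and -0.94 without control 2. Its Y-linked copy EIF1AY had 0 counts in all 4 libraries. EIF4E2, a cap-binding protein linked to translational repression, had overlapping groups, with 50.5 and 36.3 normalized CPM in the controls against 43.5 and 51.9 under inhibition. EIF2AK2 encodes the kinase PKR, which shuts down initiation in response to double-stranded RNA. It had 54 and 10 counts in the controls against 37 and 35 under inhibition. The controls were thus further apart than the groups. Over the 13 tested EIF genes, 7 log2 fold changes were positive and 6 negative, with a median of 0.02. The groups did not overlap in 8 (61.5%), against 40.1% of all tested genes, whose median count was 185 against 554. The summed level of the EIF genes was 4652 and 4625 normalized CPM in control and 4772 and 5113 in SIRT6-inhibited oocytes.

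The 3 EEF genes all had negative log2 fold changes, and none had an unadjusted p-value under 0.05 with all 4 libraries. EEF1A1, which delivers aminoacyl-tRNA to the ribosome, had 5232 and 5111 counts in the controls and 3391 and 5727 in the SIRT6-inhibited libraries. In normalized CPM it stood at 1129.6 and 1439 in the controls against 1054 and 1193 under inhibition. Its groups overlapped, since SIRT6-inhibited 2 lay above control 1, and the log2 fold change was -0.19 (95% interval -0.56 to 0.17). Without control 1 it was -0.37 with an unadjusted p-value under 0.05, and without control 2 it was -0.013. EEF1A1 has near-identical copies in mammalian genomes, so its counts are uncertain to that extent.

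EEF1B2 encodes the exchange factor that recharges eEF1A with GTP. It had 58.5 and 77.1 normalized CPM in control and 58.1 and 56.7 in SIRT6-inhibited oocytes, so that control 1 and SIRT6-inhibited 1 were nearly equal. EEF1E1, despite its symbol, encodes a scaffold of the aminoacyl-tRNA synthetase complex. It had 170 and 79 counts in the controls and 39 and 96 in the SIRT6-inhibited libraries, and its log2 fold change of -0.87 had a standard error of 0.73. The median of the 3 log2 fold changes was -0.24.

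CPEB2 was the other gene with lower values under the threshold. It encodes an RNA-binding protein of the cytoplasmic polyadenylation family and lies at chr8:10401350-10472141. Its counts were 398 and 329 in the controls against 97 and 281 under inhibition. In normalized CPM these were 85.9 and 92.6 in the controls against 30.1 and 58.5 under inhibition. The controls lay close together, at 89.3 ± 4.73, and the SIRT6-inhibited libraries below them and further apart, at 44.3 ± 20.1 (SD, n = 2 each). The log2 fold change, -1.005, had a 95% interval of -1.98 to -0.03 (edgeR's quasi-likelihood adjusted p = 0.534). SIRT6-inhibited 2 had the highest sum of cumulus markers of all libraries, and lay below both controls for CPEB2. SIRT6-inhibited 1, the library with the lowest sum, was the lower of the pair, a relation that was not tested. Without that library the log2 fold change was -0.61 with an unadjusted p-value above 0.05. The threshold was also missed in DESeq2, and without control 1 or control 2, at -1.07 and -0.96, and was met without SIRT6-inhibited 2, at -1.57.

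CPEB1, the founding member of the family and a regulator of dormant messages in maturing oocytes, had overlapping groups. It had 118 and 256 normalized CPM in control and 127 and 121 in SIRT6-inhibited oocytes, so control 2 stood alone above 3 libraries of similar level. The log2 fold change was -0.59 (standard error 0.37, edgeR's quasi-likelihood adjusted p = 0.754). Without control 2 it was 0.07, and without control 1 it was -1.05 with an unadjusted p-value under 0.05, so that its direction rested on control 2. The CPEB1 locus overlaps a noncoding RNA gene, with the same limit as for EIF1B. The count ratio of CPEB2 to CPEB1 was 0.728 and 0.362 in the controls and 0.237 and 0.485 in the SIRT6-inhibited libraries, which overlapped.

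On the side of message decay, ZFP36 was under the unadjusted threshold and the deadenylation genes were not. ZFP36 (chr6:48063732-48066235) encodes tristetraprolin, which binds AU-rich elements and recruits deadenylases. It had 1108 and 810 counts in the controls against 968 and 1576 under inhibition. These were 239 and 228 normalized CPM in the controls against 300.7 and 328 under inhibition. Both SIRT6-inhibited libraries were above both controls, at 314 ± 19.4 against 234 ± 7.93 (SD, n = 2 each). The log2 fold change was 0.43 (standard error 0.17, 95% interval 0.01 to 0.84, edgeR's quasi-likelihood adjusted p = 0.534). It missed the unadjusted threshold in DESeq2, with library totals, with either other filter on low counts, and with any library left out, at 0.46 and 0.39 without controls 1 and 2 and 0.49 and 0.36 without SIRT6-inhibited 1 and 2.

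CNOT2, a scaffold subunit of the CCR4-NOT deadenylase and the only CNOT gene listed, gave no separation of the groups. It had 154 and 162 normalized CPM in control and 213 and 139 in SIRT6-inhibited oocytes, so the SIRT6-inhibited libraries lay on either side of the controls. The log2 fold change was 0.16 (95% interval -0.49 to 0.80). BTG1, of a family that binds the catalytic subunits of that complex, had 120.5 and 85.3 normalized CPM in the controls and 106 and 109.8 in the SIRT6-inhibited libraries, a log2 fold change of 0.07. Its locus, too, overlaps another annotated gene. BTG3 had 73 and 37 counts in the controls against 1 and 51 under inhibition. A difference between the groups in BTG3 could not be told from the gap within the SIRT6-inhibited group. BTG2, with 6 counts in control 2 and 0 in the other libraries, was not tested.

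Among the small RNA genes DICER1 had the closest replicates. It encodes the nuclease that cuts double-stranded RNA into small interfering RNAs and microRNA precursors into microRNAs. Its counts were 1514 and 1226 in control and 1331 and 2045 in SIRT6-inhibited oocytes. In normalized CPM it had 327 and 345 in the controls against 414 and 426 under inhibition. The groups were apart, at 336 ± 12.9 and 419.7 ± 8.77 (SD, n = 2 each), and the log2 fold change was 0.32 with a 95% interval of -0.04 to 0.69 (edgeR's quasi-likelihood adjusted p = 0.583). AGO2, the Argonaute that can slice its target, had 174 and 198 normalized CPM in the controls and 197 and 244 in the SIRT6-inhibited libraries, which overlapped. Its log2 fold change was 0.24, with 0.38 without SIRT6-inhibited 1 and 0.075 without SIRT6-inhibited 2.

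The other Argonaute genes had few counts and large gaps between replicates. AGO4, AGO1 and AGO3 lie in that order side by side on chromosome 6, between 91967499 and 92225811, whereas AGO2 lies on chromosome 4. AGO1 had 40 and 80 counts in the controls against 74 and 1 under inhibition. AGO3 had 64 and 21 counts in control and 8 and 27 in SIRT6-inhibited oocytes. AGO4 had 63 counts in control 1 and 0 in the other 3 libraries and was not tested. The neighbours thus did not share a pattern over the libraries: AGO4 was seen in control 1 alone, and AGO1 was missing almost entirely from SIRT6-inhibited 2. The loci of AGO4, AGO1 and AGO3 each overlap another annotated gene.

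Replicates lay closer together in members with more counts. In the 14 members with a mean of at least 500 counts, the median gap between replicates was 0.22 on the log2 scale in the controls and 0.15 in the SIRT6-inhibited libraries. In the 12 members with fewer counts it was 0.59 and 0.84. The widest gap was that of AGO1, whose scaled level was 110.4 times higher in SIRT6-inhibited 1 than in SIRT6-inhibited 2 (95% counting interval 19.2 to 4418). BTG3 was 34.2 times higher in SIRT6-inhibited 2 than in SIRT6-inhibited 1 (5.87 to 1377), so the low library was not the same for both genes. EIF2AK2 was 4.14 times higher in control 1 than in control 2 (2.09 to 9.12). These 3 genes were chosen for their gaps after the values were seen. For AGO1 the log2 fold change was -0.43 with all 4 libraries, -6.04 without SIRT6-inhibited 1 and 0.56 without SIRT6-inhibited 2. That of BTG3 was -1.25 with all 4 libraries, -0.31 without SIRT6-inhibited 1 and -5.26 without SIRT6-inhibited 2. The unadjusted p-value was under 0.05 only in the fits that gave -6.04 and -5.26, so either call rested on a lone library with 1 count.

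**Figure D4:**
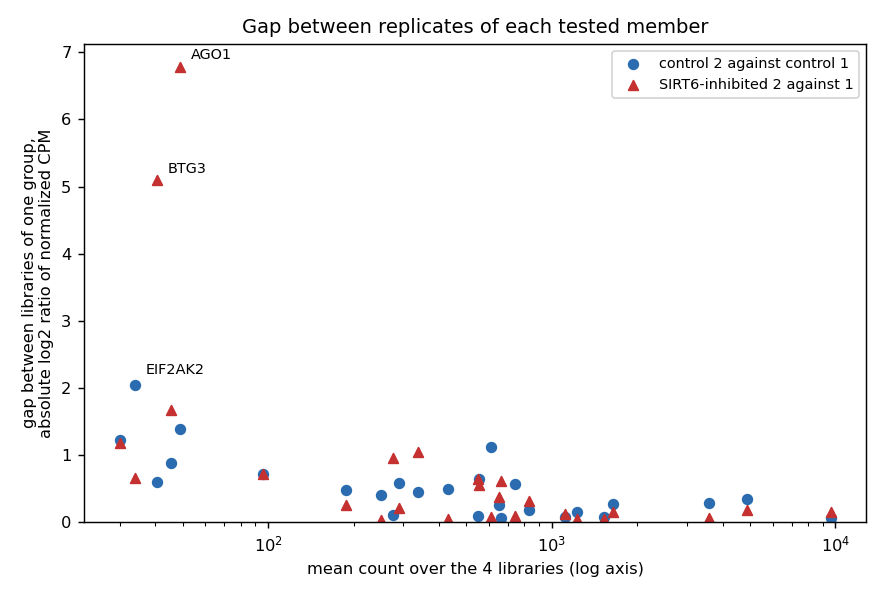
Gap between the replicate libraries of each group (absolute log2 ratio of normalized CPM) for the 26 tested members against the mean count over the 4 libraries (log axis), with circles for controls and triangles for SIRT6-inhibited libraries. Gaps of members with at least 500 counts had medians of 0.22 and 0.15, and AGO1, BTG3 and EIF2AK2 stand highest at the low-count end.

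**Figure D5:**
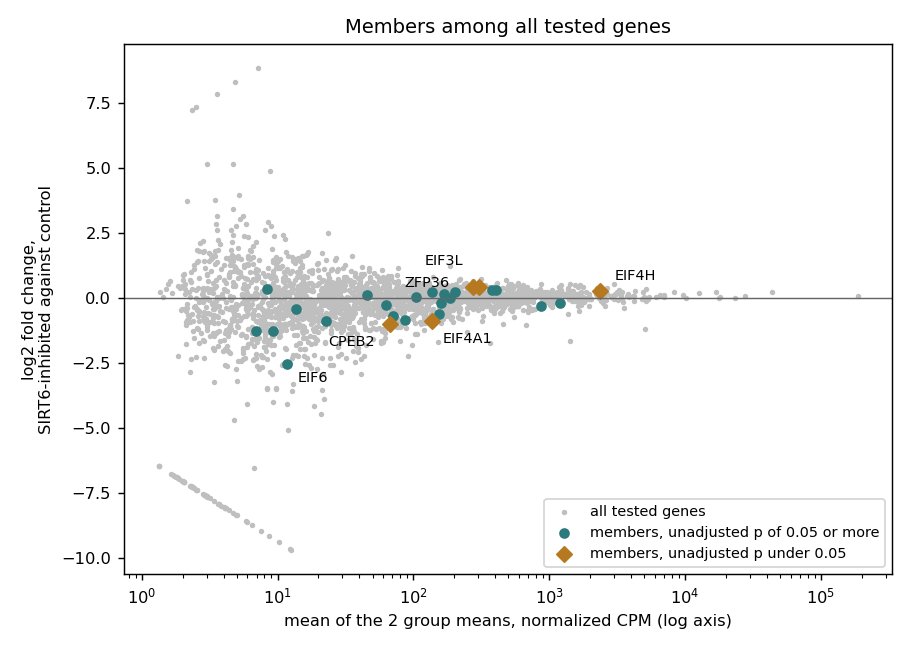
Log2 fold change against mean normalized CPM (log axis) for all 2387 tested genes in grey and the 26 tested members in colour, with diamonds for the 5 members with an unadjusted p-value under 0.05. The members lie within the cloud of all genes, from EIF6 at -2.52 to EIF3L at 0.43.

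Other genes of the same processes, which the symbol rule does not take, were examined from a list of 116 symbols. Of these 20 were listed and 16 tested, with 9 positive and 7 negative log2 fold changes, a median of 0.11 and 0 unadjusted p-values under 0.05 in edgeR or DESeq2. The groups did not overlap in 11 of the 16 (68.8%), against 40.1% of all tested genes. The 16 also had more reads, a median of 410 per library against 185, and the part of that depth was not tested. The 16 include EIPR1, which is known for vesicle traffic and not for these processes. EIPR1 had a log2 fold change of 0.75 and groups that did not overlap. MKNK1, a kinase that phosphorylates the cap-binding protein eIF4E, had the most counts of them. It had 1437 and 1265 normalized CPM in the controls and 1626 and 1497 in the SIRT6-inhibited libraries, a log2 fold change of 0.21 (standard error 0.12). KHDRBS1, which encodes the RNA-binding protein Sam68, had 1208 and 1099 normalized CPM in the controls against 1064 and 1057 under inhibition, a log2 fold change of -0.12. ELAVL1, which encodes the AU-rich element binding protein HuR, had 511 and 501 normalized CPM in control and 562 and 566 in SIRT6-inhibited oocytes, a log2 fold change of 0.16. DGCR8, a partner of the microRNA-processing nuclease DROSHA, had the smallest p-value of the 16, with 206 and 86 counts in the controls and 25 and 65 in the SIRT6-inhibited libraries. LIN28A had 427 and 445 normalized CPM in the controls and 482 and 608 under inhibition. TOB1 had 30.9 and 34.3 in the controls against 28.6 and 6.25. ZAR1 was lower under inhibition without SIRT6-inhibited 1 and higher without SIRT6-inhibited 2. It had 83.8 and 117 normalized CPM in control 1 and control 2, 220.3 in SIRT6-inhibited 1 and 35.4 in SIRT6-inhibited 2.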

How the data were processed

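For 2 control and 2 SIRT6-inhibited libraries the authors deposited unnormalized counts of reads by gene symbol. The submitters' processing notes name TopHat2 2.0.13, Cufflinks 2.2.1, Cuffnorm and Cuffdiff and the builds mm10 and susScr11, without their roles. The counting tool and strand are not given in the sources used here. The labels describe Smart-seq2 amplification, and the study's methods an extraction of total RNA. Both name the NEBNext Ultra kit for the mRNA libraries. Coordinates are those of RefSeq Sscrofa11.1, the assembly of susScr11, to which all 29 symbols matched.

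All tests were fitted to the whole count table with R 4.3.3 and edgeR 4.0.16. Genes were kept by filterByExpr (minimum count 10, minimum total 15) and scaled by TMM (factors 0.966 to 1.04). Normalized CPM divide counts by these scaled totals. The two-sided quasi-likelihood test compared the groups, and p-values were adjusted over 2387 genes by the Benjamini-Hochberg method. The standard error is the log2 fold change divided by the square root of F. An exact permutation test of 2 against 2 cannot go below 0.333 and was not used. Levels were not compared between genes, since transcript lengths were not used here.

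The members and lists were chosen with earlier results of these data known. Named by rule were members with an unadjusted p-value under 0.05, the member with most reads in each role class, CPEB1, and the 3 other pathway genes with most reads. Further members, EIPR1, PTGS2, INHBA, CYP11A1, GDF9, ZP2, DGCR8, LIN28A, TOB1 and ZAR1 were named after their values were seen. Alternatives were RLE normalization, library totals, 2 other filters, a replicate block, a block with crossed numbers, DESeq2 1.42.0, and each library left out in turn.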

Additional observations from a re-analysis of the deposited data

How the results depend on the processing

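Of 315 alternative log2 fold changes of the 26 tested members and 3 other pathway genes, 302 kept their direction and 13 did not, and 18 members kept it in every fit that tested them. EIF4A1, CPEB2, EIF4H, EIF3L and ZFP36 kept theirs in all 11 alternatives, with unadjusted p-values under 0.05 in 8, 7, 7, 4 and 2 of them. EIF4A3 had -0.049 with library totals. With each library left out in turn, log2 fold changes ran from -0.25 to 0.32 in EIF4A3, -0.045 to 0.60 in EIF3I, -0.32 to 1.72 in EIF2AK2, -0.088 to 0.38 in EIF4E2, -1.05 to 0.065 in CPEB1, -0.16 to 0.33 in BTG1, -0.19 to 0.43 in CNOT2 and -6.04 to 0.56 in AGO1. Without a change of direction they ran from -0.38 to -0.0074 in EIF3D, 0.18 to 0.45 in EIF4G1, -0.44 to -0.033 in EEF1B2, -1.28 to -0.48 in EEF1E1, -1.98 to -0.55 in AGO3, 0.12 to 0.30 in MKNK1 and -0.19 to -0.060 in KHDRBS1. The cause was not tested. A lone library was assumed to vary like the other group.

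At an unadjusted p-value under 0.05, 5 of 26 members (19.2%) stood against 9.05% of all tested genes. DESeq2's test gave 3 (EIF4A1, EIF4H and EIF6; 11.5% against 9.93%). With a library left out there were between 1 and 4, mostly other genes. Without control 1 there were 3 (CPEB1, EEF1A1 and EIF4H; 11.5% against 5.8%) and without control 2 there was 1 (EIF4A2; 3.7% against 4.4%). Without SIRT6-inhibited 1 there were 4 (AGO1, EIF1B, EIF4A1 and EIF6; 14.8% against 11.7%) and without SIRT6-inhibited 2 there were 2 (BTG3 and CPEB2; 7.41% against 11.0%). These fits kept 1, 0, 1 and 1 of the 5. Genes under that threshold among all tested ranged from 111 (without control 2) to 302, and other pathway genes from 0 to 3.

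Members passing adjustment ranged from 0 to 1 with a library left out, the 1 being EIF4A1 without SIRT6-inhibited 1, when 77 of 2586 tested genes (2.98%) passed. Over all tested genes 0 passed with all libraries and TMM, 0 without control 1, 1 without control 2, 25 without SIRT6-inhibited 2, 43 without a filter, 2 with at least 10 counts in every library and 37 (1.55%) in DESeq2. The members' median ran from -0.28 to -0.048 with a library left out.

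Without a filter 6 members were under the unadjusted threshold (21.4% against 8.89%), EIF1B and CPEB1 joining and ZFP36 leaving. With RLE there were 5 (19.2% against 9.05%). With library totals there were 4 (15.4% against 9.3%), 1 higher and 3 lower, EIF4A2 joining and EIF3L and ZFP36 leaving, against 53 higher and 169 lower of all tested genes, where TMM gave 73 and 143. With at least 10 counts in every library, which left 22 members, the members' median was 0.045 and 4 members (18.2% against 11.4%) and 1 other pathway gene, DGCR8, were under the threshold. Members whose groups did not overlap numbered 14 with RLE (53.8%) and 15 with library totals (57.7%), against 40.1% of all tested genes in each, settings added after seeing the data.

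Replicate numbers share no stated source, and deviations of same-numbered libraries had a correlation of -0.117 across genes, which are not independent replicates. With the number as a replicate block, 3 members (EIF4A1, CPEB2 and EIF1B) were under the threshold, 11.5% against 7.37% of all tested genes, and EIF4H, EIF3L and ZFP36 were not. In that fit 0 members and 6 of all tested genes passed adjustment. A block with crossed numbers, added after seeing the data, put 7 members under the threshold (26.9% against 10.1%). These were CPEB2, EIF1B, EIF3L, EIF4A1, EIF4A2, EIF4H and ZFP36. With crossed numbers 0 members and 2 of all tested genes (0.0838%) passed adjustment.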
